A study of Homo sapiens with 30 samples.

Results

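The ERBB receptor family and its ligands were examined across the RWPE1 lines of this series as 8 genes, 3 receptors (EGFR, ERBB2 and ERBB3) and 5 ligands (AREG, EREG, HBEGF, TGFA and BTC), out of 26255 genes in the deposited expression table. The genes were picked by name, as the rows of that table that carry one of these symbols, and ERG, ERK2 and ATAC peaks within 20 kb of each locus were added. RWPE1 is an immortalised line of normal prostate epithelium, and each line of it was made by retroviral transduction and drug selection. RWPE1-Vector cells carried empty vectors, RWPE1-ERG cells expressed ERG (isoform 1, pQCXIH), RWPE1-mAKT cells expressed mAKT, a myristoylated and therefore constitutively active AKT (pBabe-puro), and RWPE1-ERG+mAKT cells expressed both. RWPE1-ERG S96E cells, used here only for H3K27me3, expressed an ERG with a phosphomimetic change at the site phosphorylated by ERK. VCaP is a prostate cancer line with a TMPRSS2/ERG rearrangement, here treated with DMSO. All RWPE1 lines grew in a medium supplemented with EGF and bovine pituitary extract, so a ligand of EGFR was supplied to every group.

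RNA-seq comprised 3 libraries for each of 4 lines, and the deposited table gives 1 FPKM value per line, pooled over those libraries. FPKM is the number of fragments scaled to transcript length and to the mapped fragments of the library, so levels of different genes can be set side by side. Because the values are pooled and the test results deposited with them were not used here, no difference below has a replicate check and none was tested. The depth of the RNA-seq libraries is unknown. Each ChIP-seq or ATAC-seq list comes from 1 library per line, with 10306483 ChIP reads behind the ERG peaks called in RWPE1-ERG+mAKT cells, 8393459 behind the ERK2 list of RWPE1-Vector cells and 15020233 behind that of RWPE1-ERG cells. The transgenes followed the labels. ERG had 0.264 FPKM in RWPE1-Vector cells and 0.435 FPKM in RWPE1-mAKT cells, against 358 FPKM in RWPE1-ERG and 328 FPKM in RWPE1-ERG+mAKT cells. AKT1 had 58.7 FPKM with vector and 64.2 FPKM with ERG, against 156 FPKM with mAKT and 281 FPKM with ERG and mAKT, so its level was not equal in both lines that carry mAKT. Of the cell type markers, the basal keratins KRT5 and KRT14 were abundant in every line (KRT5 at 3126, 1170, 3642 and 3519 FPKM in the vector, ERG, mAKT and ERG+mAKT lines), the luminal keratins KRT8 (622 to 1769 FPKM) and KRT18 (817 to 1843 FPKM) were abundant in every line too, the luminal marker KLK3 was listed at 0, and the endothelial and blood markers had summed levels of at most 0.236 FPKM and 0.004 FPKM.

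ERBB receptors are tyrosine kinases that dimerise when a ligand of the EGF family binds. EGFR binds EGF, transforming growth factor alpha, amphiregulin, epiregulin, betacellulin and heparin-binding EGF, whereas ERBB2 has no known ligand of its own and ERBB3, whose kinase is weak, signals mainly through partners. The ligands are made as membrane proteins and released by metalloproteases, and the active receptors feed both the Ras/ERK and the PI3K/AKT pathways, the pathways whose effect on ERG this series compares. In prostate epithelium, EGFR is known as a receptor of the basal layer.

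Among the receptors, EGFR was the most abundant and the one whose level differed most between lines. Its mRNA stood at 57.1 FPKM in RWPE1-Vector cells, 32.4 FPKM in RWPE1-ERG cells, 55.4 FPKM in RWPE1-mAKT cells and 46.4 FPKM in RWPE1-ERG+mAKT cells. The ERG line was thus the low one, the vector and mAKT lines lay close together at the top, and the line with both transgenes lay between them. The log2 ratio of ERG over vector was −0.82, and that of ERG+mAKT over mAKT was −0.26. In rank, EGFR stood above 86.7% of the 12669 genes with at least 1 FPKM in any line in vector cells, and above 76.2% of them in ERG cells. EGFR lies on chromosome 7 from 55086725 to 55275031 (hg19, plus strand).

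ERBB2 and ERBB3 showed smaller differences than EGFR. ERBB2, the preferred dimerisation partner of the family, was at 16.2, 16.7, 18.3 and 16.9 FPKM in the vector, ERG, mAKT and ERG+mAKT lines, so its highest line was 1.13 times its lowest. ERBB3, which couples the family to PI3-kinase, was the lowest receptor, at 2.90, 2.95, 4.25 and 3.43 FPKM in the same order. The mAKT line was the highest for both genes, with a log2 ratio over vector of 0.18 for ERBB2 and 0.55 for ERBB3, and with ERG added to mAKT the ratio of ERBB3 over the mAKT line was −0.31. Summed over the 3 receptors, the level was 76.2 FPKM with vector, 52.0 FPKM with ERG, 78.0 FPKM with mAKT and 66.7 FPKM with both, and EGFR made up between 62.3% (ERG) and 74.9% (vector) of that sum. ERBB2 made up 21.3% of the sum in vector cells and 32.1% in ERG cells, although its own level was nearly the same in them.

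**Figure D1:**
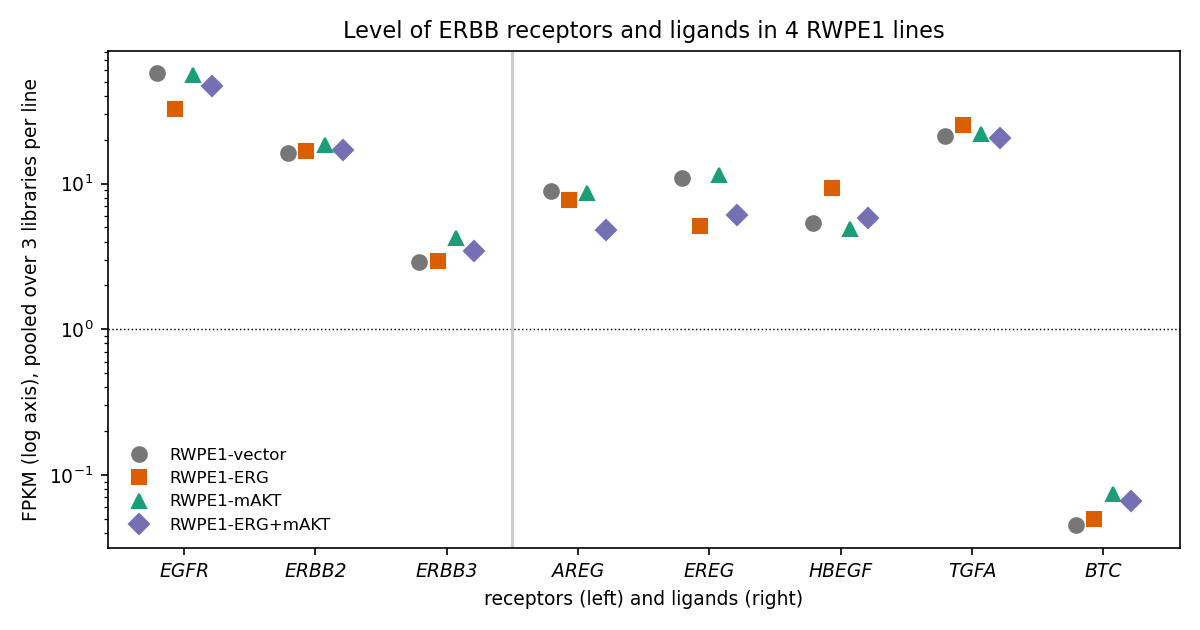
FPKM of the 8 genes (log axis, 1 pooled value per line and no error bar, since no library values are used here) in the 4 RWPE1 lines, receptors left and ligands right of the grey line, with a dotted line at 1 FPKM. EGFR and EREG have their lowest point in the ERG line, HBEGF its highest, AREG its lowest in the ERG+mAKT line, and BTC lies below 0.1 FPKM throughout.

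The ligands did not follow a single order of the lines. EREG, which encodes epiregulin, a ligand of EGFR and ERBB4, was at 10.9 FPKM with vector, 5.15 FPKM with ERG, 11.4 FPKM with mAKT and 6.12 FPKM with ERG and mAKT. Both lines with ERG were the low ones, whether or not mAKT was present. The log2 ratio was −1.08 for ERG over vector and −0.89 for ERG+mAKT over mAKT. AREG, which encodes amphiregulin, a ligand of the same cluster on chromosome 4, was at 8.95, 7.71, 8.66 and 4.84 FPKM in the vector, ERG, mAKT and ERG+mAKT lines. Its listed locus is a second, nearly identical copy of the gene, so its level, and each ratio, count or sum that includes it, is uncertain. For AREG only the line with both transgenes was set apart, with a log2 ratio of −0.89 over vector, −0.67 over ERG and −0.84 over mAKT. ERG alone over vector gave −0.22.

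HBEGF and TGFA were highest in the ERG line. HBEGF, the heparin-binding ligand, was at 5.33 FPKM with vector, 9.26 FPKM with ERG, 4.89 FPKM with mAKT and 5.77 FPKM with both. The ERG line was at 1.74 times the level of the vector line (log2 ratio 0.80), and in the presence of mAKT the corresponding log2 ratio was 0.24. TGFA, transforming growth factor alpha, was the most abundant ligand in every line, at 21.3, 25.4, 22.0 and 20.6 FPKM, and its highest line was 1.23 times its lowest. BTC, betacellulin, was at 0.045, 0.050, 0.074 and 0.066 FPKM, levels too low for its ratios to be read. Summed over the 5 ligands, the level was 46.5 FPKM with vector, 47.6 FPKM with ERG, 47.0 FPKM with mAKT and 37.4 FPKM with both. Within that sum EREG made up 23.4% with vector and 10.8% with ERG, HBEGF 11.5% and 19.5%, and TGFA 45.8% and 53.4%.

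Set against all genes with at least 1 FPKM in any line, the 7 members at or above that level (all but BTC) passed a 2-fold limit in few comparisons. For ERG over vector, 1 of 7 passed it, EREG, which was lower, where 6.58% of all such genes passed it in either direction. For mAKT over ERG, 1 of 7 passed it, again EREG, which was higher in the mAKT line at a log2 ratio of 1.14, against 6.89% of all genes. No member passed it for mAKT over vector (2.27% of all genes), ERG+mAKT over vector (5.43%), ERG+mAKT over ERG (6.36%) or ERG+mAKT over mAKT (3.84%). With a pseudocount of 1 FPKM, EREG no longer passed 2-fold for ERG over vector, and no member did.

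A limit of 1.5-fold took in EGFR, AREG and HBEGF as well. For ERG over vector, 3 of 7 members passed it (EGFR and EREG lower, HBEGF higher), where 14.5% of all genes did. For mAKT over ERG, EGFR and EREG passed it as higher and HBEGF as lower, against 14.5% of all genes, and both comparisons share the ERG line. For ERG+mAKT over vector, AREG and EREG passed it as lower, against 12.2% of all genes. For ERG+mAKT over ERG, AREG and HBEGF passed it as lower, against 15.2% of all genes, and for ERG+mAKT over mAKT, AREG and EREG passed it as lower, against 9.44% of all genes. For mAKT over vector no member passed it, where 5.87% of all genes did. These comparisons share lines, and counts this small beside those shares set nothing apart about the members.

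**Figure D2:**
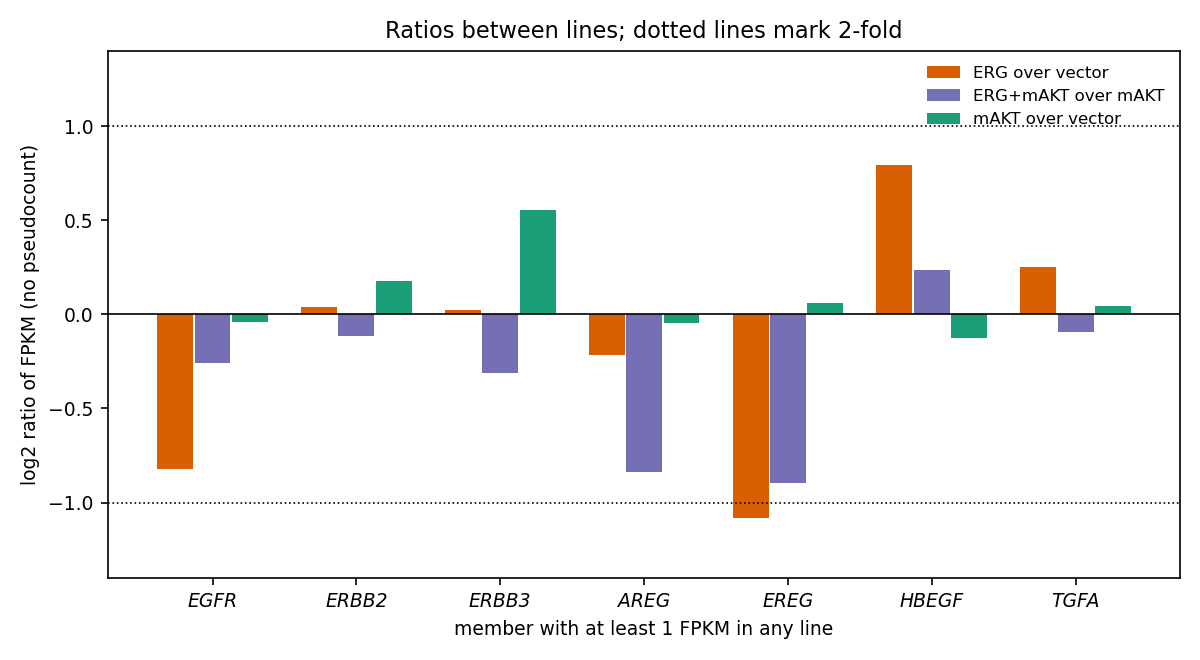
Log2 ratio of FPKM (no pseudocount) for the 7 members with at least 1 FPKM in any line, with 1 bar per comparison and dotted lines at 2-fold. EREG and EGFR are lower with ERG over vector (−1.08 and −0.82), EREG and AREG are lower with ERG+mAKT over mAKT (−0.89 and −0.84), HBEGF is higher with ERG over vector (0.80), and the bars of mAKT over vector are short except for ERBB3 (0.55).

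The ratio of the lines with and without ERG was set side by side for cells without and with mAKT. It was −0.82 and −0.26 on the log2 scale for EGFR, and 0.80 and 0.24 for HBEGF, so both genes differed less between lines when mAKT was present. For EREG it was −1.08 and −0.89. For AREG it was −0.22 and −0.84, the larger difference being that with mAKT. For ERBB2, ERBB3 and TGFA it was 0.04 and −0.12, 0.02 and −0.31, and 0.25 and −0.09. With 1 pooled value per line, these differences between ratios could not be tested.

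Levels of basal and luminal keratins differed between the same lines, and their part in the member levels was not tested. Summed over 4 of 4 basal markers (KRT5, KRT14, KRT15 and TP63), the level was 6131 FPKM with vector, 1971 FPKM with ERG, 6261 FPKM with mAKT and 5021 FPKM with both. For ERG over vector, KRT15 differed in direction from the other 3, at 33.3 FPKM with vector and 80.3 FPKM with ERG (log2 ratio 1.27), where the ratio was −1.42 for KRT5, −2.07 for KRT14 and −0.77 for TP63. For both transgenes over vector, KRT14 was lower (−1.31), whereas KRT15 reached 280 FPKM and KRT5 and TP63 had ratios of 0.17 and 0.06. Of the 3 luminal markers used here, KRT8 was at 622, 1769, 671 and 921 FPKM and KRT18 at 817, 1843, 987 and 958 FPKM in the vector, ERG, mAKT and ERG+mAKT lines, and KLK3 was listed at 0. The mesenchymal list (VIM, COL1A1 and COL1A2) summed to between 290 FPKM with both transgenes and 1058 FPKM with ERG, nearly all of it VIM. In such bulk samples, fewer cells of a type and less RNA per cell cannot be told apart.

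EREG was the only member above 1 FPKM whose highest line exceeded its lowest by 2-fold, at 2.21 times. The 3 genes whose profile over the 4 lines lay nearest to that of EREG, by Euclidean distance of log2(FPKM + 1) centred over the lines among 12668 other genes, were CYP26B1, HTR7 and TRIM58. CYP26B1, a retinoic acid hydroxylase, was at 2.67, 0.873, 2.65 and 1.13 FPKM in the vector, ERG, mAKT and ERG+mAKT lines (distance 0.048). HTR7, a serotonin receptor, was at 3.91, 1.57, 3.88 and 1.84 FPKM (distance 0.068). TRIM58, a ubiquitin ligase, was at 1.93, 0.584, 2.14 and 0.907 FPKM (distance 0.087). With 4 lines, many genes can lie near any profile.

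Other ligands and the fourth receptor were mostly low in these cells. ERBB4 was listed at 0 with vector and reached at most 0.004 FPKM, EGF stayed between 0.021 FPKM and 0.033 FPKM although the protein was in the medium, and NRG3 reached at most 0.002 FPKM. NRG2 was at 0.134, 0.077, 0.204 and 0.052 FPKM. Of the 7 genes of this list, 3 reached 1 FPKM. NRG1, a neuregulin that binds ERBB3 and ERBB4, was at 8.87 FPKM with vector, 5.47 FPKM with ERG, 8.73 FPKM with mAKT and 3.26 FPKM with both, a log2 ratio of −1.45 for ERG+mAKT over vector and −1.42 over mAKT. EPGN, epigen, the EGFR ligand beside EREG on chromosome 4, went the other way, at 2.90, 2.84, 2.25 and 5.68 FPKM, a log2 ratio of 1.34 for ERG+mAKT over mAKT. NRG4, a ligand of ERBB4, was at 0.531, 0.324, 1.00 and 0.684 FPKM, with a log2 ratio of 1.63 for mAKT over ERG and 1.08 for ERG+mAKT over ERG. For ERG over vector, 0 of these 3 passed 2-fold (6.58% of all expressed genes). Their median log2 ratio was −0.70, the value of NRG1, against −0.01 for all expressed genes. For ERG+mAKT over mAKT, 1 passed 2-fold as higher (EPGN) and 1 as lower (NRG1), against 3.84% of all. For ERG+mAKT over vector, 1 passed it as lower (5.43%). As higher, 1 passed it for ERG+mAKT over ERG (6.36%) and 1 for mAKT over ERG (6.89%). For mAKT over vector, 0 passed it (2.27%). With 3 genes, these counts set nothing apart.

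Among the genes that release the ligands, pass the signal on or restrain it, 1 passed 2-fold in any comparison. Of the 5 shedding genes (ADAM10, ADAM17, RHBDF1, RHBDF2 and TIMP3), all above 1 FPKM, 1 passed 2-fold as lower for ERG over vector, where 6.58% of all expressed genes passed it in either direction. This was TIMP3, an inhibitor of metalloproteases including the ligand sheddase ADAM17, at 5.14 FPKM with vector, 1.05 FPKM with ERG, 8.65 FPKM with mAKT and 7.67 FPKM with both. Its log2 ratio was −2.30 for ERG over vector, 3.05 for mAKT over ERG and 2.87 for ERG+mAKT over ERG, so the ERG line alone was low. ADAM17 was at 11.7, 10.2, 10.2 and 11.7 FPKM in the same order. None of the 7 expressed adaptors and exchange factors of 8 listed (GAB2 stayed below 1 FPKM), and none of the 10 negative regulators, passed 2-fold in any of the 6 comparisons. The median log2 ratio for ERG over vector was −0.20 for the shedding genes, −0.21 for the adaptors and −0.08 for the negative regulators, against −0.01 for all expressed genes. In a single comparison, 2.27% to 6.89% of all expressed genes passed 2-fold and 5.87% to 15.2% passed 1.5-fold. The share passing in at least 1 of the 6 comparisons was not computed, so counts over any comparison have no share beside them. At the 1.5-fold limit, 1 of 5 shedding genes, 0 of 7 adaptors and 3 of 3 other ligands passed in at least 1 comparison. So did 4 of the 10 negative regulators, which are named here after their values were seen. The log2 ratio was −0.91 for LRIG1 (mAKT over ERG), 0.81 for LRIG3 (ERG+mAKT over ERG), −0.75 for SPRED1 (ERG+mAKT over vector) and −0.81 for SPRED2 (ERG+mAKT over mAKT).

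Peaks near the loci were then counted. ERG binds a GGAA core as other ETS factors do, often beside AP-1, and the series asks where ERG and its kinase ERK2 sit on chromatin. In RWPE1-ERG+mAKT cells, 9 ERG peaks lay within 20 kb of a member, and 5 of 8 members had at least 1 (EGFR, ERBB2, ERBB3, EREG and HBEGF), where 30.5% of all genes had a peak within that distance. In the ERG list of VCaP cells, 4 peaks lay near 3 of 8 members (EGFR, ERBB3 and TGFA), against 21.4% of all genes. No ERG list of RWPE1-ERG cells was used here, and the paper reports that ERG gained binding sites with mAKT. The ERG peaks given here therefore cannot be matched to the differences between the ERG and vector lines. Long loci take in more peaks, and the searched window ran from 49895 bp for AREG to 228307 bp for EGFR. These were weak peaks. The pileup, the height in overlapping reads, was 3 to 7 in RWPE1-ERG+mAKT cells, the fold enrichment over input 2.82 to 4.96, and 3 of the 9 had a q-value of at most 0.05. At a q-value of at most 0.01, 0 of 8 members had an ERG peak in RWPE1-ERG+mAKT cells and 1, ERBB3, had one in VCaP cells. Of the whole lists, 450 of 9113 and 1730 of 6143 ERG peaks met that limit.

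Upstream of HBEGF, 2 ERG peaks of RWPE1-ERG+mAKT cells lay 1620 bp and 1987 bp before the gene start. The farther one (chr5:139728104-139728249, between genes) had a fold enrichment of 4.96 and ranked 496th by fold of 9113 peaks. The nearer one (fold enrichment 3.52) overlapped an ATAC peak in each of the 3 lines whose ATAC lists were used (an ATAC list of RWPE1-Vector cells was not used here), and the farther one began just beyond it. The third ERG peak lay 28504 bp beyond the start, downstream of the gene (chr5:139697616-139697724, fold enrichment 4.72). Its nearest coding start was that of PFDN1, 14986 bp away, and it overlapped no ATAC peak in the 3 lines. In EREG, a single ERG peak lay in an intron 2465 bp from the start (chr4:75233304-75233414, fold enrichment 3.53), overlapping no ATAC peak. No ERG peak of either list lay within 20 kb of AREG or BTC. The table places AREG at 75480591 to 75490485 on chromosome 4, a second and nearly identical copy of the gene. The annotation gives the name AREG to a copy at 75310853 to 75320722, with 95.9% of its 31-base words shared. Reads from the shared stretches cannot be told apart, so the level of AREG is uncertain. That copy had no ERG peak within 20 kb either, and 1 ERK2 peak in the vector list (fold enrichment 3.08).

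Reference sequences (GRCh37, plus strand) of 151 bases around the summit are shown for the ERG peak of highest fold enrichment at HBEGF, EREG, ERBB2 and ERBB3, since these windows show whether the letters that ERG binds are present. Capitals mark GGAA on either strand (GGAA or TTCC) and the AP-1 letters TGACTCA or TGAGTCA.
HBEGF, chr5:139728100-139728250: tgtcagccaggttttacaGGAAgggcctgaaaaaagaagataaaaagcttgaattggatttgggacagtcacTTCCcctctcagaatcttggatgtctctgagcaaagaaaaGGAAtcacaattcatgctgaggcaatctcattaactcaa
EREG, chr4:75233250-75233400: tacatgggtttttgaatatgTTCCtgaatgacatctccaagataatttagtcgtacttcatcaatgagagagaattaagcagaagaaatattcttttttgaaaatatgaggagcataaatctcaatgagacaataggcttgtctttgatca
ERBB2 downstream, chr17:37896976-37897126: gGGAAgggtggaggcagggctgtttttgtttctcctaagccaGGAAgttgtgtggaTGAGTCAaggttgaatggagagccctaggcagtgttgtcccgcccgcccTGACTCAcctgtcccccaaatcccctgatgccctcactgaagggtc
ERBB3 downstream, chr12:56511881-56512031: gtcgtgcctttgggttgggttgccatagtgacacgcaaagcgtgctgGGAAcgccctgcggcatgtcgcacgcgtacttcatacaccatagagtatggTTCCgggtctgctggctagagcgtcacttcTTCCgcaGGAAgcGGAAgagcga
GGAA occurred 3 times at HBEGF, 1 time at EREG, 2 times at ERBB2 and 5 times at ERBB3. Such a match is frequent in a window of 151 bases. It was present in 80.3% of all 9110 such windows of RWPE1-ERG+mAKT cells and in 74.4% of windows 1 kb to either side of them, and in 82.2% and 75.1% of those of VCaP cells. AP-1 letters occurred 2 times in the ERBB2 window and not in the other 3, and in 6.92% of all windows of that list against 2.56% of the windows beside them.

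Of the 8 ERG peaks near the receptors in both lists, 4 lay nearest to a coding start of the receptor (3 in EGFR introns and 1 upstream of ERBB3) and 4 nearest to that of another gene. The one upstream of ERBB3 lay 16868 bp before its start, between genes (chr12:56456861-56456969, fold enrichment 2.82). Downstream of ERBB2, both ERG peaks of RWPE1-ERG+mAKT cells sat at GRB7, an adaptor gene. The first lay 360 bp from a GRB7 start between genes (fold enrichment 3.53), and the second lay in a GRB7 intron (chr17:37897009-37897117, fold enrichment 4.24) over an ATAC peak in all 3 lines. Downstream of ERBB3, an ERG peak (chr12:56511905-56512033, fold enrichment 4.94) lay 78 bp from a start of ESYT1, 38147 bp from the ERBB3 start. It overlapped an ERK2 peak of RWPE1-Vector cells, an ERK2 peak of RWPE1-ERG cells and an ATAC peak in all 3 lines. The VCaP ERG peak at this end of the locus lay 107 bp from a start of RPL41, a ribosomal protein gene (fold enrichment 4.65, −log10 q-value 2.47). In the ERBB3 gene itself, from 56473809 to 56497291 on chromosome 12, no ERG or ERK2 peak was listed.

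ERK2 peaks lay near 5 of 8 members in RWPE1-Vector cells (21 peaks, at EGFR, ERBB2, ERBB3, HBEGF and TGFA), where 69.0% of all genes had one, and near 4 of 8 in RWPE1-ERG cells (9 peaks, at EGFR, ERBB2, ERBB3 and TGFA), against 24.5% of all genes. The lists differ in depth and length (41276 and 5721 peaks), so their counts are not a comparison of the lines. EGFR alone held 11 of the 21, spread over its long locus, with fold enrichments of 2.41 to 3.69. EREG, AREG and BTC had no ERK2 peak in either list, and HBEGF had 3 in the vector list and 0 in the ERG list. Of the 21 peaks of the vector list, 0 had a q-value of at most 0.05, and of the 9 of the ERG list 1 had one. This peak (chr12:56510960-56511288, fold enrichment 6.33, −log10 q-value 3.56) lay over RPL41, 709 bp from its start and 37317 bp from that of ERBB3, and ranked 74th by fold of 5721 peaks.

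ERK2 peaks at EGFR and TGFA lay partly in open chromatin. In the vector list, 3 of 11 at EGFR and 2 of 4 at TGFA overlapped an ATAC peak of any of the 3 lines. In the ERG list, 2 of 3 at each gene did. Among all 41276 peaks of the vector list, 7.28% to 9.31% overlapped an ATAC peak, depending on which ATAC list was used. Among all 5721 peaks of the ERG list, 38.4% to 42.0% did. The share over any of the 3 lines was not computed. The ERK2 lists thus differ in this share genome-wide, so these counts show no difference between lines at EGFR or TGFA. At EGFR, an ERK2 peak of RWPE1-ERG cells (chr7:55200679-55200876, fold enrichment 4.04) and the ERG peak of RWPE1-ERG+mAKT cells (chr7:55201488-55201596, fold enrichment 3.53) lay with their ends 612 bp apart, 114033 bp and 114850 bp from the gene start. Both overlapped 1 ATAC peak, which spanned 55200388 to 55201751 in RWPE1-ERG cells (fold enrichment 6.57) and had a fold enrichment of 7.48 in RWPE1+mAKT and 7.33 in RWPE1-ERG+mAKT cells. The vector list had no ERK2 peak within 1 kb of either. In TGFA, ERK2 peaks of both lists lay with their ends 2 bp apart inside an ATAC peak of all 3 lines. The vector peak (chr2:70751432-70751632) had a fold enrichment of 2.46 and the ERG peak (chr2:70751634-70751925) one of 3.40, and a second ERK2 peak of RWPE1-ERG cells at 70752119 to 70752381 had one of 3.17. Nearer the TGFA start, 2 ERK2 peaks of the vector list lay 902 bp and 1645 bp into the gene, both with a fold enrichment of 3.69. The nearer one overlapped an ATAC peak of RWPE1+mAKT cells, and the farther one overlapped none.

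The EGFR intron windows are shown because an ERK2 peak and an ERG peak lay within 1 open region there. The peaks come from different lines, RWPE1-ERG and RWPE1-ERG+mAKT, so they do not show both factors together in 1 line. Both were weak, with −log10 q-values of 0.49 for ERK2 and 0.15 for ERG. These windows were chosen after their values were seen. The VCaP window is the ERG peak of highest fold enrichment at EGFR (4.03), in another intron, 77694 bp from the start.
EGFR, ERK2 in RWPE1-ERG, chr7:55200683-55200833: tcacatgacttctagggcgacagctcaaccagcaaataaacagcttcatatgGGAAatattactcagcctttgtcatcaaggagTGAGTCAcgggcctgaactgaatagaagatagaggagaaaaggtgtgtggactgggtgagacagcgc
EGFR, ERG in RWPE1-ERG+mAKT, chr7:55201500-55201650: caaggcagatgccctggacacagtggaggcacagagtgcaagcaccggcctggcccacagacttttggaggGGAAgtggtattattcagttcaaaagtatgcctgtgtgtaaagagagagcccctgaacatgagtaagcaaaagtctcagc
EGFR, ERG in VCaP, chr7:55164344-55164494: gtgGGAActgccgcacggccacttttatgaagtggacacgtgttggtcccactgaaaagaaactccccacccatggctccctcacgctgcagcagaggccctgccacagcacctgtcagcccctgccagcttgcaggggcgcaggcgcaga
Each of the 3 windows holds GGAA 1 time, and AP-1 letters occur only in the ERK2 window, 1 time. The share of ERK2 windows with either match was not computed, so the matches in that window have no share beside them.

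**Figure D3:**
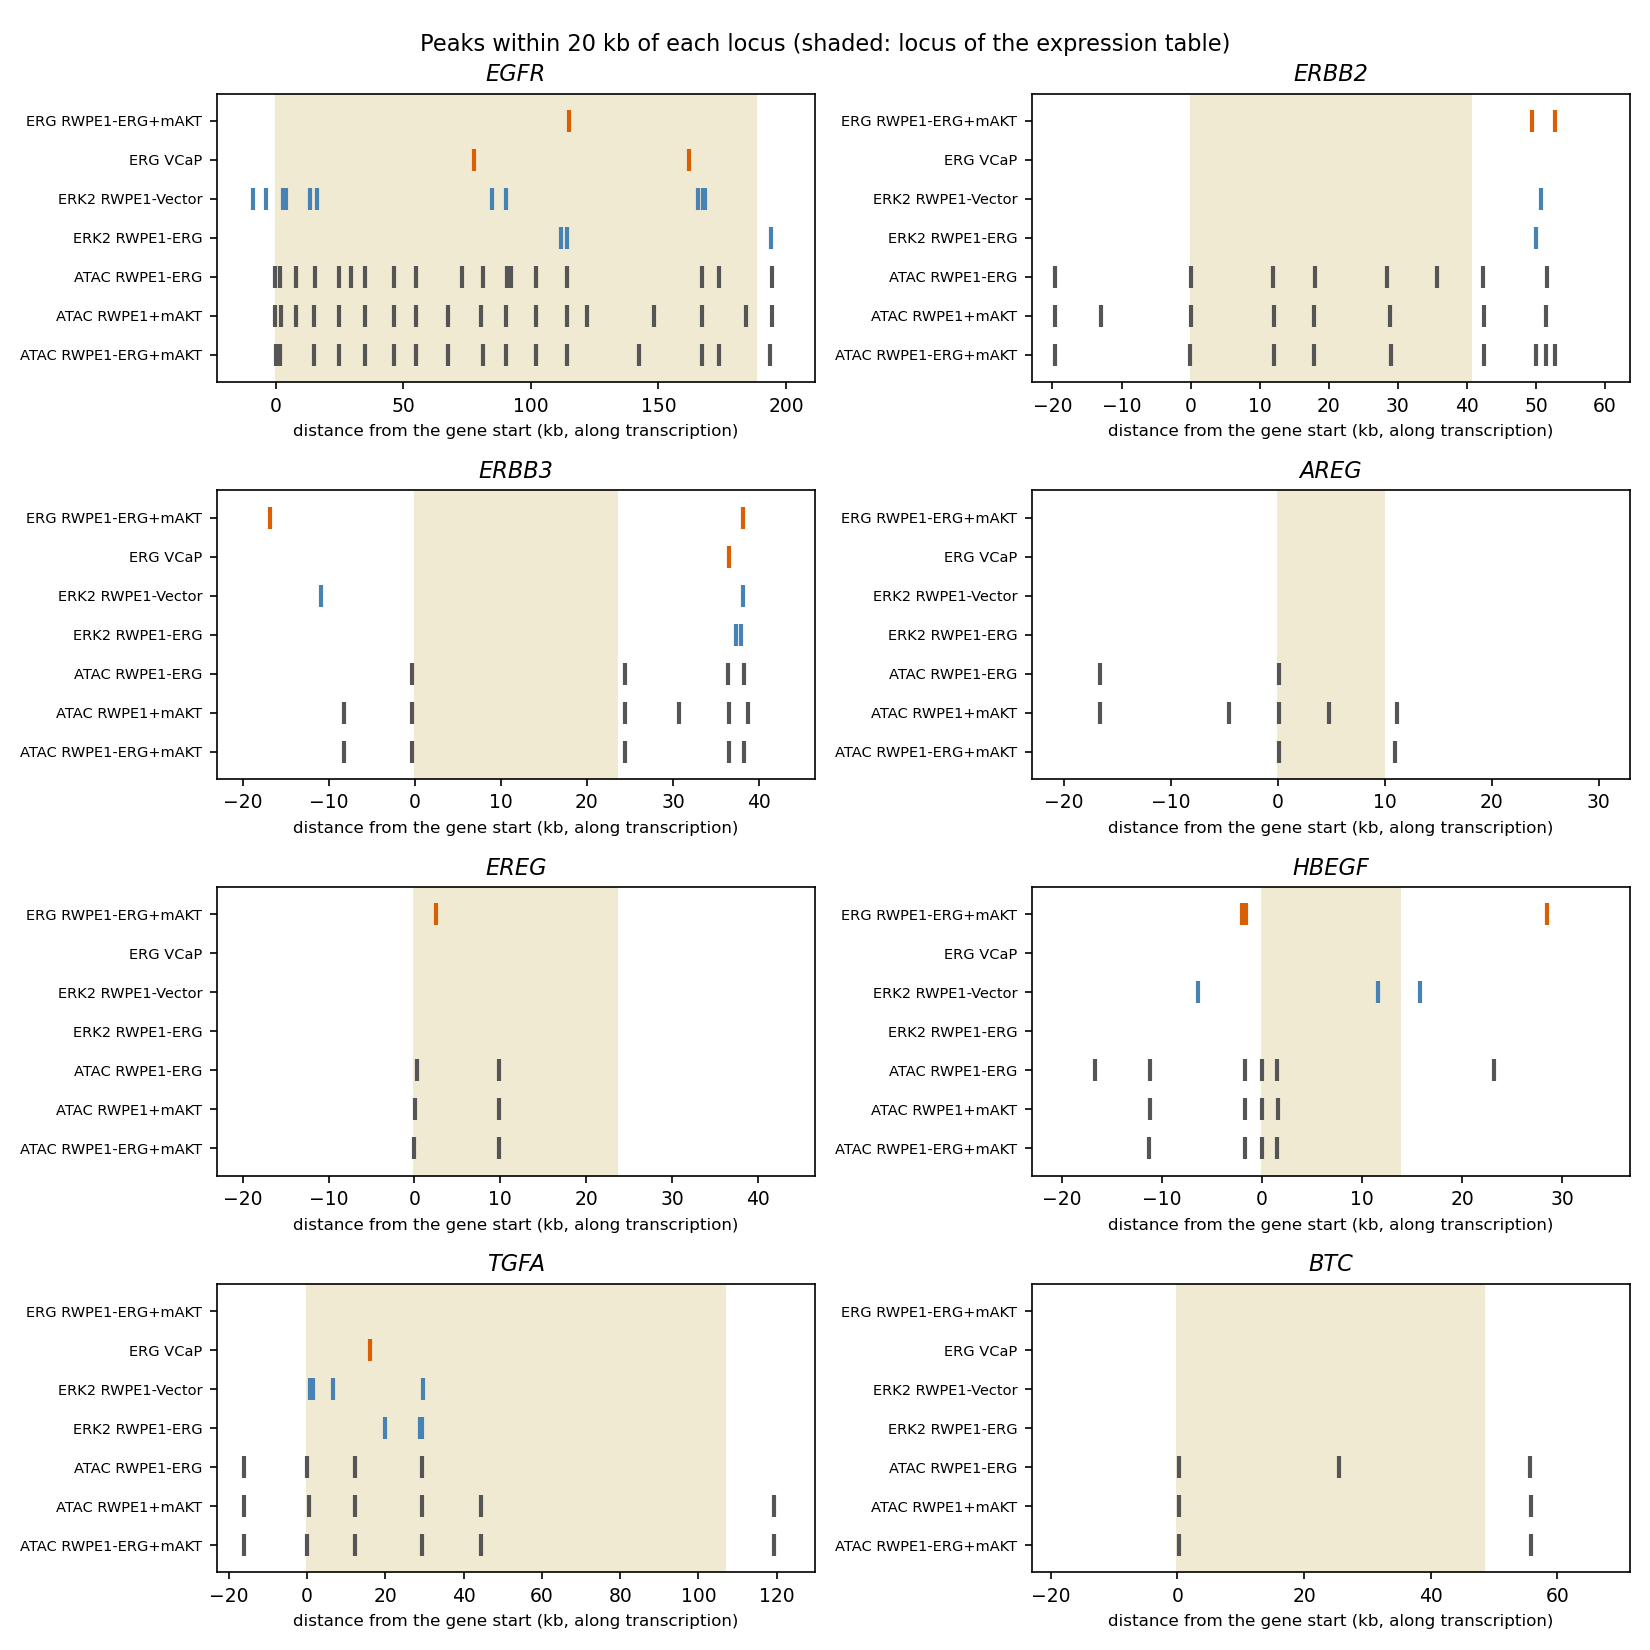
Position of each ERG, ERK2 and ATAC peak within 20 kb of the 8 loci, as distance from the gene start along transcription (kb), 1 row per list and 1 tick per peak at its summit (ATAC: midpoint), with the locus shaded. EGFR has the most peaks in the widest window, the ERG and ERK2 peaks of ERBB2 and ERBB3 lie outside those loci, and AREG and BTC have ATAC peaks only.

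ATAC peaks marked the start of every member, also that of the barely expressed BTC. In RWPE1-ERG cells 8 of 8 gene starts lay in an ATAC peak, where 48.0% of all gene starts did, and so did 8 of 8 in RWPE1+mAKT cells (46.9% of all) and 8 of 8 in RWPE1-ERG+mAKT cells (43.2% of all). Those shares are over 22144 starts and include genes below 1 FPKM, whereas 7 of the members were at or above it. The share among expressed genes was not computed, so the contrast sets nothing apart about the members. Within 20 kb there were 47, 51 and 46 ATAC peaks at the 8 members in these lines, and every member had at least 1, where 89.3%, 88.2% and 84.0% of all genes had one. At the EREG start, the peak had a fold enrichment of 4.50 in RWPE1-ERG, 5.90 in RWPE1+mAKT and 4.19 in RWPE1-ERG+mAKT cells, the mAKT line being the highest. At the HBEGF start the fold enrichment was 3.16, 3.75 and 4.97 in the same order, the ERG line being the lowest, whereas the pileup was 138, 90.1 and 69.9, the ERG line being the highest. The fold enrichment at the TGFA start was 8.56, 6.12 and 8.51, and at the EGFR start 4.57, 4.09 and 3.42. At the start of the second AREG copy it was 8.58, 6.95 and 6.13, with the same doubt about reads shared between the copies. The lists hold 63354, 57999 and 42081 peaks, whose fold enrichment had a median of 6.41, 5.26 and 5.49, and with 1 library per line these differences have no replicate check. Of the 9 ERG peaks near members in RWPE1-ERG+mAKT cells, 4 overlapped an ATAC peak of that line, against 18.5% of all 9113 ERG peaks. Among these 4, the peaks at GRB7 and ESYT1 lay nearest to the starts of those genes and not of a member. The share among ERG peaks near expressed genes was not computed, so this contrast also sets nothing apart about the members.

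**Figure D4:**
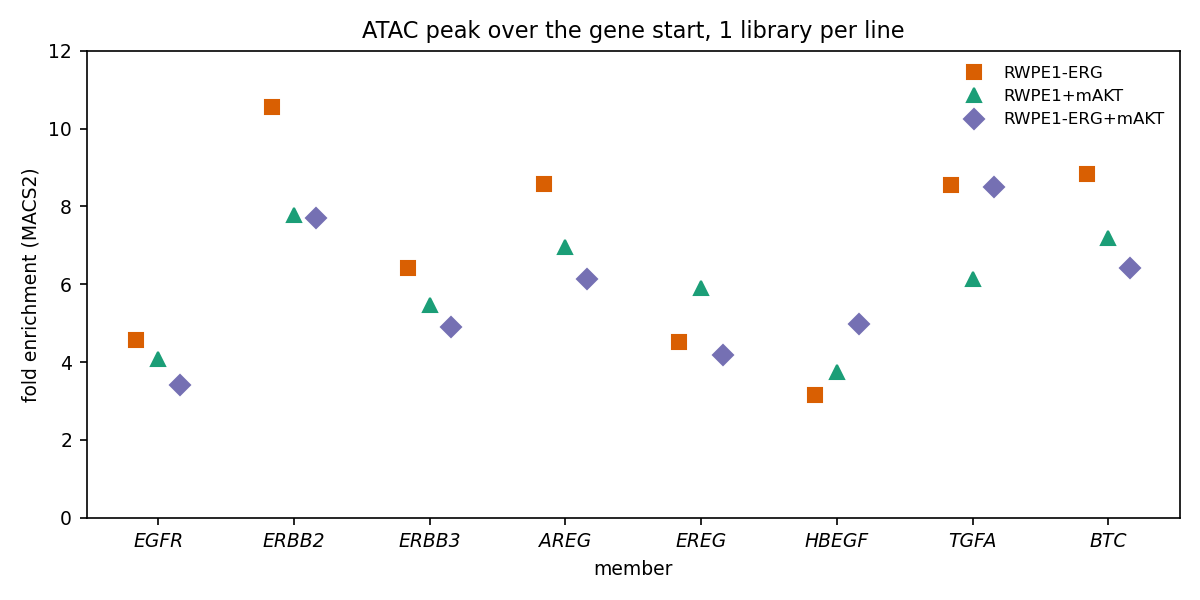
Fold enrichment (MACS2, axis from 0) of the ATAC peak over the start of each member in 3 lines, 1 library each and no error bars. Every member has a point in every line, HBEGF is highest in the ERG+mAKT line (4.97, although its pileup is lowest there), and EREG is highest in the mAKT line (5.90).

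H3K27me3, the mark laid down by the repressive complex PRC2, was listed over the locus of BTC far more than over the other members. Regions covered 20.9% of the BTC locus and its 20 kb flanks in RWPE1-Vector cells, 19.3% in RWPE1-ERG and 14.8% in RWPE1-ERG S96E cells, where the lists covered 7.81%, 4.47% and 7.24% of the genome. For the other 7 members the covered share ran from 0.821% (EREG) to 4.15% (HBEGF) in vector cells. In RWPE1-ERG cells it was 0 for ERBB3, EREG, HBEGF and TGFA. Mean fold enrichments of the BTC regions were 1.93, 1.93 and 1.99 in the same lines, and the lists hold regions with p-values of up to 0.1, with 29, 39 and 3413 of them at a q-value of at most 0.01, so these regions are faint. Within 1 kb of the gene start, 0 of 8 members had a region in RWPE1-Vector cells (27.9% of all genes), 1 of 8, BTC, in RWPE1-ERG cells (18.5% of all genes) and 1 of 8, again BTC, in RWPE1-ERG S96E cells (26.2% of all genes).

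**Figure D5:**
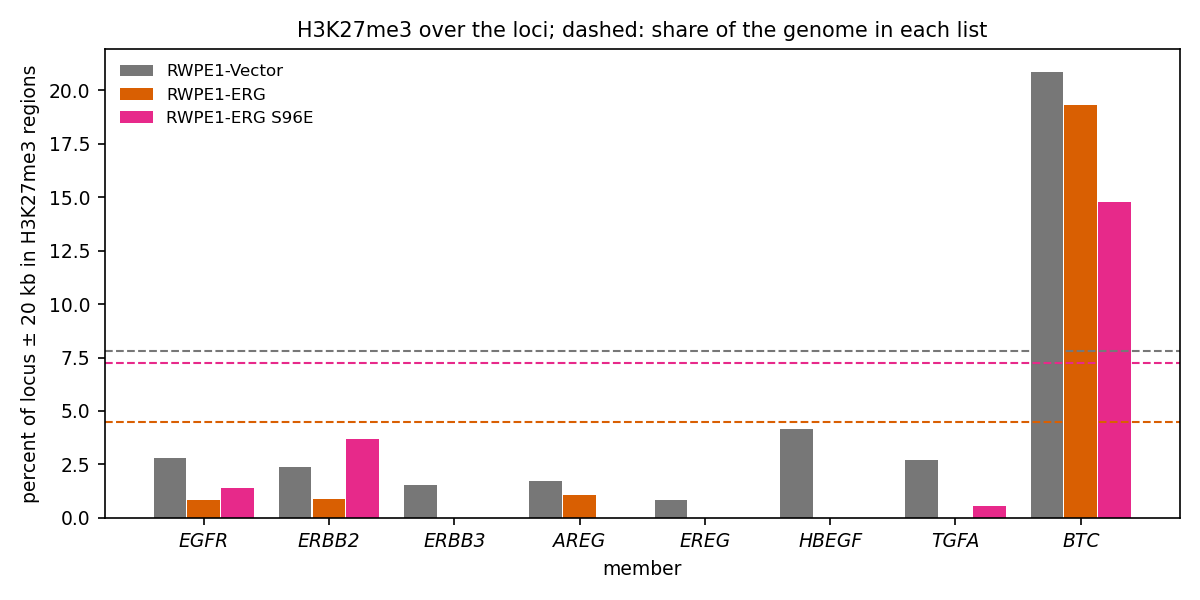
Percent of each locus with 20 kb on either side that lies in H3K27me3 regions, in 3 lines with 1 library each (no error bars), with dashed lines at the share of the genome in each list. BTC (20.9%, 19.3% and 14.8%) lies above the dashed lines and the other 7 members lie below them.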

How the data were processed

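RNA-seq levels come from the authors' Cuffdiff table (TopHat2, hg19), which gives deposited FPKM values pooled over 3 libraries per line for 26255 genes in 6 pairs of 4 lines, with log2 ratios, test scores, p-values and q-values of the authors' own comparisons, which were not used. The table has 0 columns of single samples that were left out. In 2 genes, none a member, the value of a line differed between pairs, and these were dropped. Peak lists are the authors' MACS2 output (Bowtie2, hg19, blacklist removed with bedtools, Picard), which gives for each peak a deposited pileup signal, a ratio to background (fold enrichment) and its p-value and q-value as −log10. ChIP DNA was pooled from 3 experiments, the headers name MACS2 versions 2.1.2 and 2.2.7.1, and ATAC peaks were called with the broad setting. The lists of ERK2 peaks reach p-values of 0.01 and those of ERG peaks 0.001.

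Log2 ratios were computed without a pseudocount, and "expressed" means at least 1 FPKM in any line. Genes at 0 in a line were left out of its comparisons, between 162 and 186 expressed genes in each. A gene at 0 in only 1 of the lines compared would pass any fold limit, so the shares given may be too low. A gene within 20 kb of a peak is one whose table locus, extended by that distance, overlaps it, on the main chromosomes (25958 genes). Shares of all genes with a peak or region include genes below 1 FPKM. Gene starts take their strand from GENCODE release 44 mapped to GRCh37, and transcript starts nearest to a peak are those of coding transcripts. Overlap means at least 1 bp. Sequences were read from GRCh37, the build of the files. No test was made here, since the FPKM values used are pooled over libraries and each line has 1 peak list per factor. An ATAC list of RWPE1-Vector cells was not used here.

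The 8 members and the 4 pathway lists and markers were chosen with earlier results of these data known. Named were all members, the list of other ligands and receptor, each other pathway gene past 2-fold in any comparison (at most 5 per list; ADAM17 and 4 negative regulators past 1.5-fold were added after their values were seen), the 3 genes of nearest profile to each member with a 2-fold range, and at most 3 ERG or ERK2 peaks per member and list by fold enrichment, further ones only where they overlap or adjoin another list. The EGFR intron windows were added after their values were seen. Some luminal markers and 1 peak sequence are not reported here. The 2 lists attached to samples whose labels do not describe them were not used here. The counting was checked on simulated data without noise, which tests the code and not the results. Versions were as follows: Python 3.11.15, samtools 1.23.1, pysam 0.24.0, pandas 2.3.3, numpy 2.4.6 and matplotlib 3.10.9.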

Additional observations from a re-analysis of the deposited data

How the results depend on the processing

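Of 69 alternatives of the 16 counts of members, 54 stayed within 1.5 times. Some of these could not move, so the tally is no measure of robustness. Every ATAC peak already met the q-value limit of 0.01, and ATAC counts of 8 of 8 cannot rise at 50 kb. With a pseudocount of 1 FPKM, 0 members passed 2-fold for ERG over vector. With a limit of 1.5-fold, 3 members passed it for ERG over vector and 3 for mAKT over ERG, and 2 each for ERG+mAKT over vector, over ERG and over mAKT. Centring ratios on the median of expressed genes moved none by more than 0.081 on the log2 scale and changed the sign of 1 of 48, TGFA for ERG+mAKT over vector, from −0.05 to 0.02. Within 5 kb, 3 members had an ERG peak in RWPE1-ERG+mAKT cells, 3 an ERK2 peak in RWPE1-Vector and 2 in RWPE1-ERG cells. At a q-value of at most 0.01, 0 members had an ERG peak in RWPE1-ERG+mAKT cells, 1 in VCaP cells, 0 an ERK2 peak in RWPE1-Vector and 1 in RWPE1-ERG cells. With at least 500 bp covered, 0 members had H3K27me3 at the start in RWPE1-ERG and 0 in RWPE1-ERG S96E cells. The stricter settings keep fewer peaks or bases by construction. No paired analysis was possible because each line has 1 pooled value, and for the same reason no library could be left out.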
